A study of Mus musculus with 12 samples.

Results

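Supporting cells of the cochlea are known by a short list of marker genes, and 7 of them were taken by name from the expression table of a mouse hearing loss study: Sox2, Prox1, Fgfr3, Fbxo2, Epyc, Lgr5 and Slc1a3. The table holds 37432 genes, of which 16215 reached the level set for testing, and all 7 members were among these. RNA of cochlear pieces from males at P14 was sequenced in 12 libraries, in 6 groups of 2 repeats: the apical, middle and basal turns of wild-type mice and of mice homozygous for the Gjb2 35delG mutation (Gjb2 35delG/35delG). The homozygous males were not bred. They were grown from homozygous embryonic stem cells placed in tetraploid host embryos, were delivered by cesarean section and were nursed by ICR foster females, while the wild-type males, of equal age, were purchased, so genotype and origin cannot be told apart here. The study calls the repeats of a group biological. How many mice or cochleae made up a library was not given, nor whether turns of the same mice share a replicate number. Libraries were tested as independent. The p-values measure a spread between repeats that was pooled over the 6 groups, not that of the compared pairs alone.

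Supporting cells surround the sensory hair cells and carry the gap junctions made by connexin 26, the product of Gjb2, and connexin 30. Sox2 and Prox1 are transcription factors of these cells, Fgfr3 is a receptor for fibroblast growth factors needed for pillar cells, and Lgr5 is a receptor for R-spondins that marks supporting cells able to divide in the newborn ear. Fbxo2 is an F-box protein that binds sugar chains and is very abundant in supporting cells, Epyc is a small leucine-rich proteoglycan of the extracellular matrix, and Slc1a3 is the glutamate transporter GLAST of the cells around inner hair cells and of many glia.

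Levels are given as scaled FPKM, a level per transcript length and library size, divided by a factor per library of 0.917 to 1.06. Because of this, levels can be compared between genes, and Fbxo2 (mean 957) and Epyc (mean 554) stood far above Slc1a3 (42.1), Fgfr3 (19.8), Sox2 (10.5), Lgr5 (6.95) and Prox1 (3.56). No member was at 0 in any library. Prox1 was under 1 FPKM in 3 libraries and the other members in none. The depth of the libraries is unknown from the table, so no counting error can be given. Gjb2 itself was at 126 and 58.6 in the homozygous basal libraries and between 140 and 451 in the other 10, and since 35delG removes a single base of the transcript, this level does not check the genotype.

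**Figure D1:**
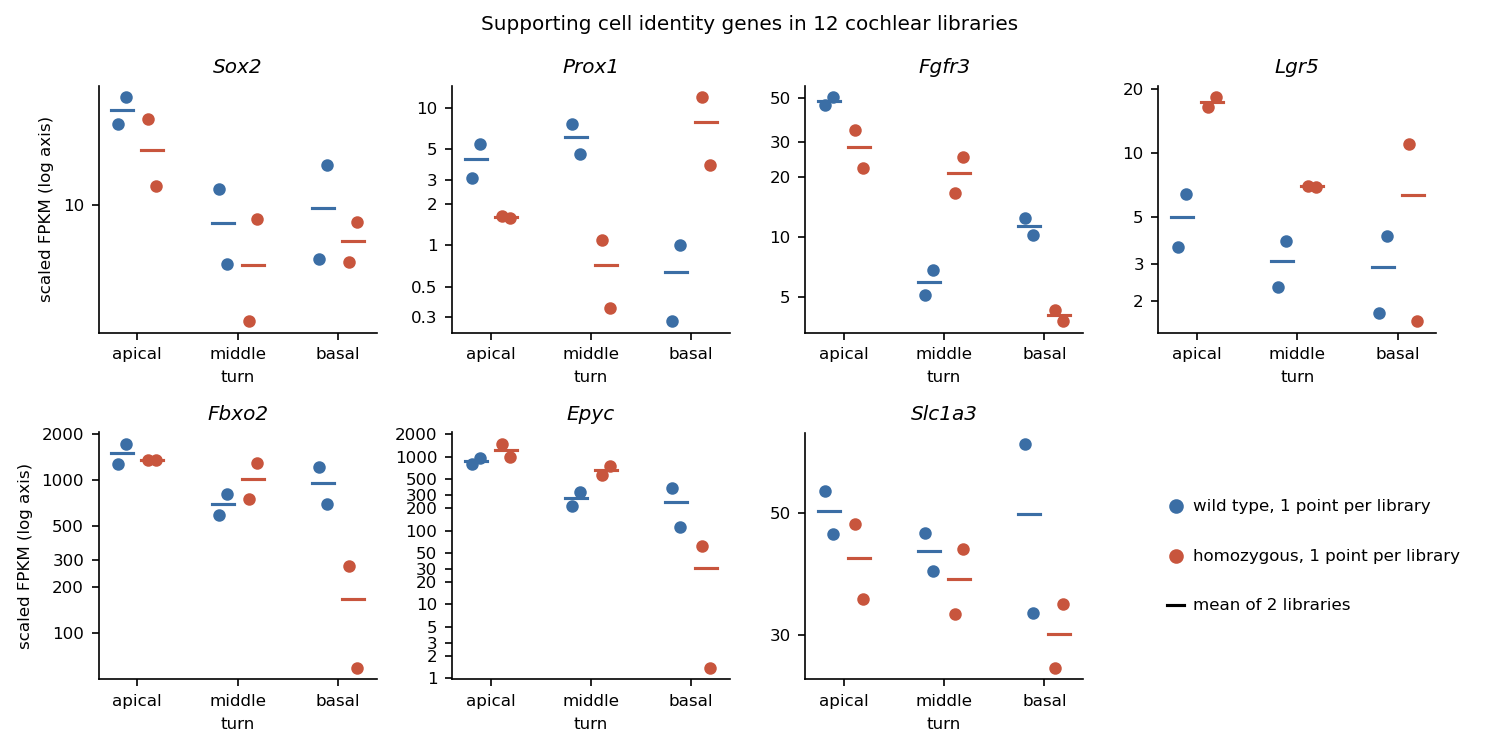
Level of the 7 members in each library (scaled FPKM, log axis) by turn, with 1 point per library and a bar at the mean of the 2 libraries of a group. Sox2 and Slc1a3 span less than 3-fold over all 12 libraries, and Epyc spans 1079-fold, with its lowest value in the second homozygous basal library.

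Marker levels of other cell types differed between the pieces. Summed hair cell markers ranged from 11.4 to 599, summed neuron markers from 10.5 to 3020 and summed markers of epithelium (Epcam, Cdh1, Krt8, Krt18 and Esrp1) from 42.7 to 382. Markers of the stria vascularis summed to 94.9 to 206 in 5 wild-type libraries and to 858 in the sixth, against 460 to 1346 in 5 homozygous ones and 87.9 in the sixth. Markers of oligodendrocytes and astrocytes, the glia of the brain and of the central part of the auditory nerve, were at 1070 in the first wild-type middle library, 352 in the second wild-type basal one and 362 and 534 in the homozygous basal pair, and at 48.0 or less in the other 8. From these levels alone fewer cells of a type and less RNA per cell cannot be told apart. By staining, the study counted hair cells and the supporting cells around them at P14 and saw no significant difference between genotypes. Whether those counts hold for the pieces sequenced here was not tested. The homozygous basal pair was low in hair cell (13.2 and 11.4) and epithelial (86.5 and 42.7) markers and high in neuron markers (2731 and 3020), and every comparison below of homozygous base with another group rests on it. The hair cell factor Pou4f3 was at 0 and 0.439 in that pair and at 2.63 to 19.4 in the other 10 libraries.

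None of the 7 members passed the test between genotypes in any turn. The test was limma on log2(scaled FPKM + 1) over all tested genes, and a gene was called where its Benjamini-Hochberg adjusted p was under 0.01 and its fold change above 2. In the apical turn 0 members were called, beside 0.179% of all tested genes, and 2 (Fgfr3 and Lgr5) had an unadjusted p under 0.05, beside 16.4% of all genes. In the middle turn 0 were called, again beside 0.179%, and 2 (Prox1 and Fgfr3) had such a p, beside 25.4%. In the basal turn 0 were called, beside 4.29%, and 4 (Prox1, Fgfr3, Fbxo2 and Epyc) had such a p, beside 32.4%. Averaged over the turns 0 were called, beside 0.376%, and 1 (Lgr5) had such a p, beside 18.6%. The median log2 difference of the 7 was −0.24 at the apex, 0.51 in the middle turn and −0.64 in the basal one.

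The levels of the genotypes did not overlap for 4 of 7 members in each turn, a share to be read beside that of all tested genes, which was 59.0% for the apical turn, 59.5% for the middle turn and 54.0% for the basal turn. Lgr5 and Epyc were the higher ones in the homozygous apical pair, and Prox1 and Fgfr3 the lower. In the middle turn Lgr5, Epyc and Fgfr3 were higher and Prox1 lower. In the basal turn Prox1 was higher, and Fgfr3, Fbxo2 and Epyc were lower.

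**Figure D2:**
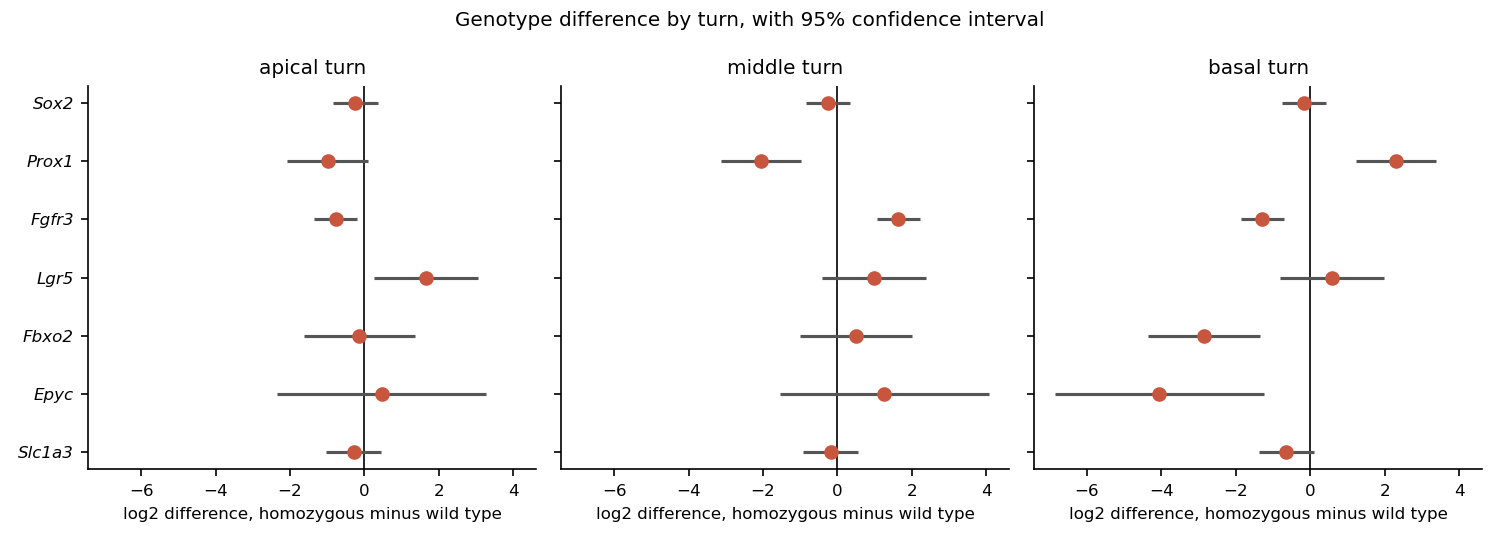
Log2 difference of the 7 members between homozygous and wild-type libraries in each turn, with 95% confidence intervals from the limma fit. The Fgfr3 interval lies above 0 in the middle turn (1.06 to 2.22) and below 0 in the basal turn (−1.87 to −0.71), and Prox1 has the opposite order.

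Among the transcription factors, Sox2 (chromosome 3, 34650405 to 34652461, plus strand, mm10), which marks supporting cells throughout the cochlea, was the steadiest member along with Slc1a3. It was at 14.1 and 15.8 in the wild-type apical libraries, 10.7 and 7.81 in the middle and 7.95 and 11.9 in the basal ones. In homozygous libraries it was at 14.4 and 10.9, 6.12 and 9.43, and 7.88 and 9.34. The genotypes overlapped in every turn, with log2 differences of −0.24 (95% confidence interval −0.83 to 0.36) at the apex, −0.24 (−0.83 to 0.35) in the middle turn and −0.16 (−0.76 to 0.43) in the basal one. Per unit of the epithelial marker Epcam, Sox2 was at 0.387 and 5.67 in the homozygous basal pair and at 0.0545 to 0.229 in the other libraries. Which cells of a piece made its Sox2 was not tested. Sox2 lies inside the longer noncoding gene Sox2ot on the same strand. Sox2ot was at 19.3 in the first wild-type middle library and 12.1 and 15.9 in the homozygous basal ones, 3 of the 4 libraries rich in glial markers, and at 6.36 or less elsewhere. Reads of the overlap may have been counted for either gene.

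Of 7 other supporting cell regulators tested, 1 passed between genotypes in the basal turn, beside 4.29% of all genes, and 0 in the apical and middle turns (0.179% each). This was Sox21, a repressor of the same family, with a log2 difference of −2.02 ± 0.31 (SE), adjusted p = 0.00674. Sox9 had −1.81 ± 0.40 (adjusted p = 0.0169) there and Gata3 −2.17 ± 0.61 (0.0392). Cdkn1b alone of the 7 was higher in homozygous libraries there, at 1.14 ± 0.24 (0.0158), and was not called.

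Prox1 (chromosome 1, 190118035 to 190170714, minus strand) was the lowest and, after Epyc, the most variable member, with a 42.7-fold span. The wild-type libraries held 3.11 and 5.47 in the apical, 7.67 and 4.66 in the middle and 0.280 and 1.01 in the basal turn. The homozygous ones held 1.63 and 1.57, 1.10 and 0.353, and 11.99 and 3.84. Homozygous Prox1 was thus the lower one in the apical and middle turns and the higher one in the basal turn. The log2 differences were −0.99 ± 0.48 (adjusted p = 0.349), −2.06 ± 0.48 (0.0509) and 2.31 ± 0.48 (0.0142). The difference between the basal and the middle difference passed the test, at 4.36 ± 0.68 with an adjusted p of 0.00394. It was 3.65 to 5.07 when each library was left out in turn, and the call was lost without either wild-type middle library or the second homozygous middle library (highest adjusted p 0.0167). A group left with 1 library was assumed in these fits to vary like the other groups.

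Neuron markers moved with Prox1, which is also made outside supporting cells. The 5 libraries with the most Prox1 were the same 5 that had the most neuron marker RNA. The match ended there, as the library next in neuron markers, the second wild-type basal one (784), held a Prox1 of only 1.01. The 10 neuron markers summed to 604 and 903, 1414 and 1585, and 10.5 and 784 in the wild-type turns from apex to base, and to 164 and 309, 334 and 43.8, and 2731 and 3020 in the homozygous ones. With each library's mean level of these markers as a term in the fit, an alternative chosen after seeing the data, the same basal minus middle difference was 3.37 and was not called (adjusted p = 0.106). With the mean level of the epithelial markers as the term it was 5.63 and was not called either (0.0551). The genes most like Prox1 over the 12 libraries, of 9459 compared, were Sema3e (Pearson's r 0.99), a guidance ligand, Appbp2 (0.98) and Sv2c (0.98), a synaptic vesicle protein. Fgf10, a ligand for the relatives of Fgfr3, had its 5 highest values in those 5 libraries, and was at 40.6 and 12.4 in the homozygous basal pair against 1.26 and 2.18 in the wild-type one, a called log2 difference of 3.14 ± 0.50 (adjusted p = 0.00746).

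Fgfr3 (chromosome 5, 33721724 to 33737068, plus strand) gave most of the calls. It was at 46.2 and 50.3 in the wild-type apical libraries, at 5.13 and 6.87 in the middle and at 12.5 and 10.3 in the basal ones. The homozygous libraries held 34.4 and 22.4, 16.7 and 25.3, and 4.34 and 3.79. In wild-type mice the receptor thus stood high at the apex alone, while in homozygous mice the middle turn stayed near the apex and only the base was low. No pair of groups overlapped except the homozygous apical and middle ones. The genotype difference was −0.77 ± 0.26 on the log2 scale at the apex (adjusted p = 0.186), 1.64 ± 0.26 in the middle turn (0.0219) and −1.29 ± 0.26 in the basal one (0.0124), so that homozygous Fgfr3 was the higher one only in the middle.

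The change of that difference between turns was called for the basal minus the middle turn, at −2.92 ± 0.36 with an adjusted p of 0.00251. It kept its call without any single library (−3.21 to −2.64, highest adjusted p 0.00999). With the neuron term it was −2.18 (adjusted p = 0.0573) and with the epithelial term −2.27 (0.0833), neither called. Prox1 and Fgfr3 were the 2 of 7 members called in this comparison, 1 in each direction, where 8.91% of all genes were called. For the middle minus the apical turn 0 members and 0.00% of all genes were called, and Fgfr3 alone of the members had an unadjusted p under 0.05, beside 8.05% of all genes, at 2.41 ± 0.36 with an adjusted p of 0.170. For the basal minus the apical turn 0 members and 0.796% of all genes were called, and 3 members (Prox1, Fbxo2 and Epyc) had an unadjusted p under 0.05, beside 28.4% of all genes.

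Along the cochlea Fgfr3 was the only member called. From apex to middle it fell by 2.82 on the log2 scale in wild-type mice (SE 0.26, adjusted p = 0.00486), as 1 of 7 members beside 0.0863% of all genes. That call was lost when any of the wild-type apical, wild-type middle or homozygous basal libraries was left out (highest adjusted p 0.0785), with a value of −3.01 to −2.64. It was also lost with the epithelial term (0.0133), with a pseudocount of 0.1 (0.0243) and in a fit of the wild-type libraries alone (0.0443). With the replicate number as a term in the fit it was lost as well. From apex to base 0 wild-type members were called, again beside 0.0863% of all genes, and Fgfr3, at −2.00 ± 0.26 (adjusted p = 0.0190), and Prox1 had an unadjusted p under 0.05, beside 20.3%. From middle to base 0 members and 0.00% of all genes were called, and the same 2 members had an unadjusted p under 0.05, beside 15.2%.

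From apex to base, Fgfr3 of homozygous mice fell by 2.51 on the log2 scale (SE 0.26, adjusted p = 0.00385), as 1 of 7 members beside 4.06% of all genes. From middle to base it fell by 2.09 (SE 0.26, adjusted p = 0.00407), as 1 of 7 beside 4.66%. The first call was lost without either wild-type apical, either homozygous apical or the second homozygous basal library (−2.81 to −2.21, highest adjusted p 0.0437). The second was lost without either library of the wild-type apical, homozygous middle or homozygous basal pair (−2.38 to −1.81, highest adjusted p 0.0158). Both were also lost with the epithelial term (adjusted p = 0.165 and 0.133), with the neuron term (0.0214 and 0.0350), without a filter on low values (0.0101 and 0.0126) and in a fit of the homozygous libraries alone (0.0118 and 0.0111). Between the homozygous apex and middle 0 members and 0.00% of all genes were called, and Sox2 alone of the members had an unadjusted p under 0.05, beside 2.65%.

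Fgfr3 ordered the pieces as some hair cell and other sensory epithelium genes did. Its nearest genes over the 12 libraries were 4930426D05Rik (r 0.99), Jag1 (0.97), the Notch ligand of supporting cells, and Slc26a5 (0.97), which encodes prestin, the motor protein of outer hair cells. The order of the 6 group means of Fgfr3 was also that of the summed hair cell markers, from 596 in wild-type apex through 330 and 323 in homozygous apex and middle to 136 in wild-type base, 67.7 in wild-type middle and 12.3 in homozygous base. Slc26a5 was at 27.1 and 27.5 in wild-type apex, 0.0256 and 0.876 in the middle and 0.594 and 1.44 in the base, and at 18.5 and 12.5, 7.79 and 11.7, and 0.0509 and 0 in homozygous pieces. It passed the test in the middle turn (log2 difference 2.93 ± 0.34, adjusted p = 0.00889). Of 13 tested hair cell markers Slc17a8 alone was lower there (−0.25 ± 0.79), and Otof was nearly level (0.09 ± 0.42). Relative to wild-type apex, Otof was at −1.69 ± 0.42 in homozygous apex and −1.20 ± 0.42 in wild-type base, an order unlike that of Fgfr3. Jag1 in the wild-type middle libraries was at 1.78 and 4.43 against 8.21 and 12.5 in the homozygous ones.

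**Figure D3:**
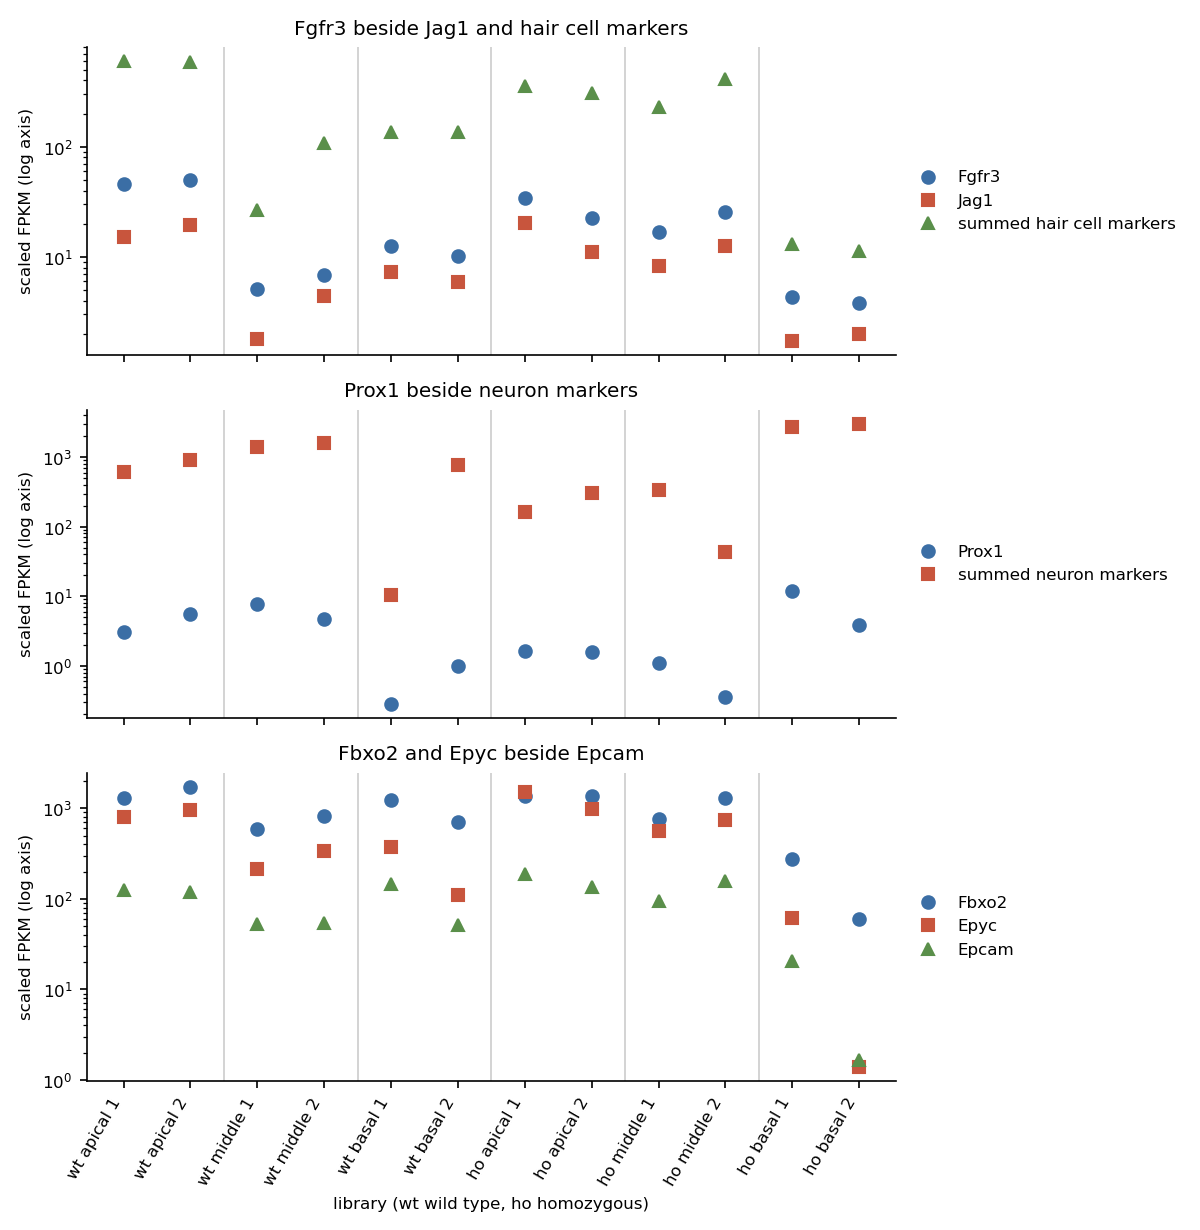
Fgfr3 beside Jag1 and summed hair cell markers, Prox1 beside summed neuron markers, and Fbxo2 and Epyc beside the epithelial gene Epcam, in each of the 12 libraries (scaled FPKM, log axes; wt wild type, ho homozygous). The 4 libraries lowest in Fgfr3, the wild-type middle pair (5.13 and 6.87) and the homozygous basal pair (4.34 and 3.79), are also the 4 lowest in hair cell markers, and the last homozygous basal library has the lowest Fbxo2, Epyc and Epcam.

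The first bases around the start of Fgfr3 and Prox1 are shown because these were the members called between turns. They come from RefSeq (GRCm38.p6) and run from 250 bases before the start to 50 after it, 5′ to 3′ on the gene's strand. The Fgfr3 window lies at chr5:33721474-33721773 (plus strand) and that of Prox1 at chr1:190170778-190171077 (minus strand). Each gene has 2 entries, of which the one nearer to the start in the table was taken. The RefSeq start was 0 bases from that start for Fgfr3 and 113 bases for Prox1. Capitals mark the GC box GGGCGG, the TATA box TATAAA and the Sox core ACAAT on either strand.
Fgfr3: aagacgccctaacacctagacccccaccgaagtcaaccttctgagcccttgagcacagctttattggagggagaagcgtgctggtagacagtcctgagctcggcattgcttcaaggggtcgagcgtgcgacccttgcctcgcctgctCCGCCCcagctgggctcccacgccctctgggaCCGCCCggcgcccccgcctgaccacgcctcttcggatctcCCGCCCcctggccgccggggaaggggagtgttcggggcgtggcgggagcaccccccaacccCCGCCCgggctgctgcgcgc
Prox1: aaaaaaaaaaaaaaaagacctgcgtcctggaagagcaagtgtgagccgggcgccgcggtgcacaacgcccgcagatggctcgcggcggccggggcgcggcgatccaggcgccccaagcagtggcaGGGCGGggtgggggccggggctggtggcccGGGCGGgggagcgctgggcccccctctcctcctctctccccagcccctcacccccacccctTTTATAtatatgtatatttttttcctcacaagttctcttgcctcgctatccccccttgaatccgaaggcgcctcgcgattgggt
GGGCGG was found 4 times in Fgfr3 and 2 times in Prox1, and 35.7% of the 32851 RefSeq windows of this length hold it. TATAAA was found in Prox1 on the opposite strand only, as TTTATA (13.6% of windows on either strand), and ACAAT in neither (31% of windows). No matches overlapped. The share of G and C was 69.7% in Fgfr3 and 64.3% in Prox1, against a median of 52.7% over all windows.

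Of 10 tested relatives, ligands and targets of Fgfr3, 0 were called in the apical and middle turns, beside 0.179% of all genes in each. In the basal turn 2 were called, beside 4.29% of all genes. These were Fgf10 (above) and the receptor Fgfr2, which was lower in homozygous libraries (log2 difference −1.18 ± 0.20, adjusted p = 0.00857). Fgfr1, the most abundant receptor of the family here, spanned only 52.6 to 87.2. Of 7 tested Notch genes 0 were called in the apical and middle turns. In the basal turn the target Hey2 rose (1.72 ± 0.23, adjusted p = 0.00505) and the target Heyl fell (−2.01 ± 0.34, 0.00822), so 1 was called in each direction, beside 4.29% of all genes.

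Lgr5 (chromosome 10, 115450311 to 115587780, minus strand) had the highest level in the homozygous apex. It was at 3.61 and 6.40, 2.33 and 3.87, and 1.76 and 4.07 in the wild-type turns from apex to base. In homozygous pieces it was at 16.5 and 18.3, 6.99 and 6.93, and 11.01 and 1.61. The homozygous values were above both wild-type ones in the apical and middle turns, while in the basal turn 1 homozygous library was the highest of the 4 and the other the lowest. The log2 difference was 1.66 (95% confidence interval 0.26 to 3.06) at the apex, 0.98 (−0.42 to 2.38) in the middle turn and 0.58 (−0.82 to 1.98) in the basal one, with adjusted p-values of 0.234, 0.355 and 0.564. Averaged over the turns it was 1.07 (0.27 to 1.88, adjusted p = 0.153), the only positive average among the 7. In the basal turn the value was −0.52 without the first homozygous library and 1.68 without the second.

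Of the 6 libraries with the most Lgr5, 4 were among the 6 highest in epithelial markers. With the epithelial term the averaged difference was 1.19 (adjusted p = 0.0699) and with the neuron term 1.08 (0.103), and the values in the apical, middle and basal turns were 0.99, 0.22 and 2.35 with the epithelial term. Fat2 (r 0.92) and Clec3a (0.89) were among the nearest genes. Of 9 tested relatives, ligands, regulators and targets, 0 passed in any turn, beside 0.179% of all genes in the apical and middle turns and 4.29% in the basal turn. Lgr4, the widely made relative, was nearly flat at 11.2 to 15.8. Axin2, a target of the Wnt pathway, was at 22.7 and 17.5 in wild-type apex against 16.7 and 11.8 in homozygous apex, the opposite order to Lgr5, and its difference was not called. The R-spondins differed in direction there. Rspo3 was higher in homozygous apex like Lgr5 (log2 difference 2.45 ± 0.73, adjusted p = 0.162) and Rspo2 lower (−0.75 ± 0.28, 0.235), neither called.

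Fbxo2 (chromosome 4, 148160621 to 148166424, plus strand) ranked at the 99.9th percentile of tested genes by its mean level. In wild-type libraries it was at 1289 and 1740, 592 and 817, and 1233 and 705 from apex to base. In homozygous libraries it was at 1371 and 1354, 755 and 1297, and 276 and 59.3. The genotypes overlapped in the apical and middle turns, and in the basal turn both homozygous values lay under all 10 others. The log2 difference was −0.14 ± 0.66 at the apex, 0.51 ± 0.66 in the middle turn and −2.85 ± 0.66 in the basal one (adjusted p = 0.0206, not called). This SE is shared by the turns, while the repeats differed 4.66-fold in homozygous base and 1.01- to 1.75-fold in the other groups. Without the first homozygous basal library the basal value was −3.95 and was called (0.00829), and without the second it was −1.75, each with 1 library in that group and the spread taken from the other groups.

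Epyc (chromosome 10, 97644068 to 97682454, plus strand) ranged the most. It was at 802 and 958, 214 and 337, and 374 and 111 in wild-type libraries and at 1497 and 988, 558 and 748, and 61.8 and 1.39 in homozygous ones. The homozygous values were the higher ones in the apical and middle turns and the lower ones at the base. Its repeats differed 44.5-fold in homozygous base and 1.19- to 3.38-fold in the other groups, and the SE shared by the turns includes that basal pair. The differences were 0.47 ± 1.24, 1.26 ± 1.24 and −4.06 ± 1.24 on the log2 scale, and the last had an adjusted p of 0.0524. It was −6.42 and called (0.00380) without the first homozygous basal library and −1.70 without the second, again with 1 library in that group and the spread taken from the others. Within homozygous mice the change from apex to base missed the threshold narrowly for Epyc (−6.63 ± 1.24, adjusted p = 0.0104) and Fbxo2 (−3.40 ± 0.66, 0.0115). The antisense gene Gm10754 overlaps the end of Epyc and was at 0.0910 to 18.2, and whether the counting used strand was not stated, so their reads may be mixed.

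Fbxo2 and Epyc moved together, with r 0.97 over the 12 libraries, and both had epithelial genes as their nearest ones. These included Ap1m2 and Ildr1 for Fbxo2 (each r 0.99) and Slc44a3, Meltf and Epcam for Epyc (each 0.98). Epcam, an adhesion molecule of epithelia, was at 20.4 and 1.65 in the homozygous basal pair and at 51.8 to 187 in the other 10 libraries. Per unit of Epcam, Fbxo2 was at 13.6 and 36.0 in that pair, against 8.44 and 13.6 in wild-type base and 7.32 to 15.2 in the other 8. The same ratio of Epyc was 3.04 and 0.843 in that pair, against 2.56 and 2.14 in wild-type base and 4.09 to 8.14 in the other 8.

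With the epithelial term the basal difference of Fbxo2 was −0.22 (adjusted p = 0.809) and that of Epyc 1.33 (0.161). In the apical and middle turns the same term gave −1.12 and −0.62 for Fbxo2 and −1.55 and −1.05 for Epyc, with adjusted p-values of 0.0602 to 0.269. None of these passed the test. The epithelial markers include Epcam, a gene among the nearest to Epyc, and both members followed epithelial genes over the same 12 libraries. A shift with this term could thus be foreseen. Whether the share of epithelium made the difference was not tested.

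**Figure D4:**
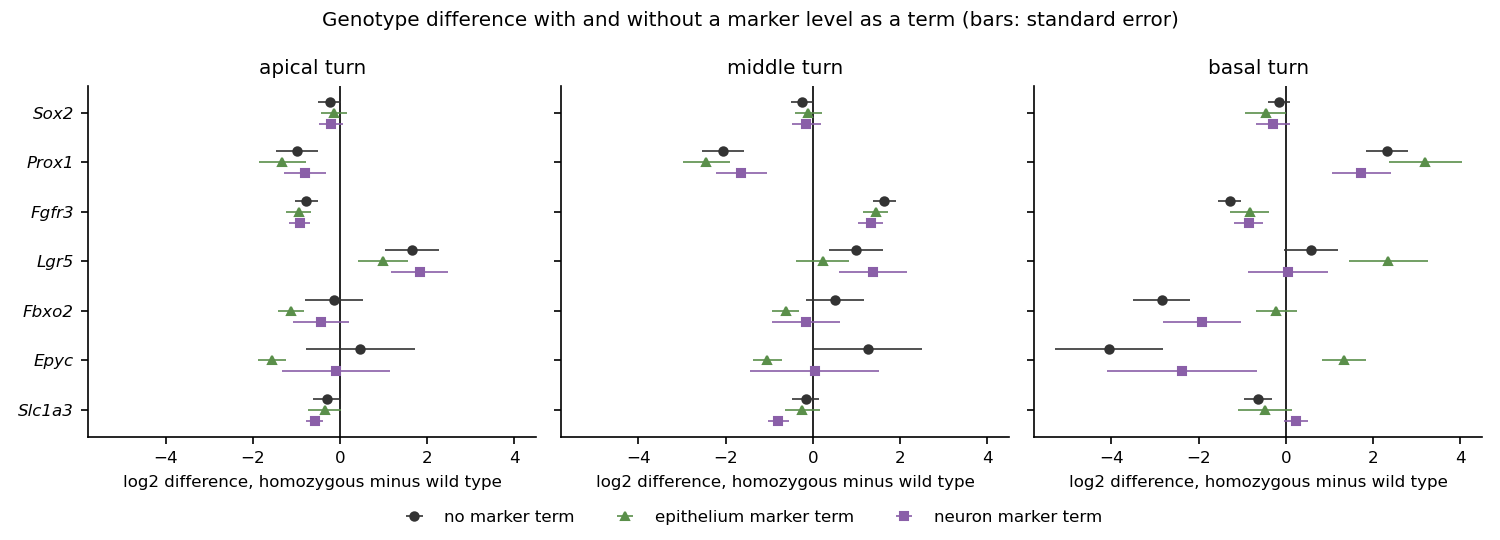
Log2 difference of each member between homozygous and wild-type libraries by turn, without a marker term, with the mean level of 5 epithelial markers as a term and with that of 10 neuron markers (bars, standard error). In the basal turn the values of Fbxo2 and Epyc move from −2.85 and −4.06 to −0.22 and 1.33 with the epithelial term, and that of Prox1 from 2.31 to 1.73 with the neuron term. The epithelial markers include Epcam, a gene among the nearest to Epyc.

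The windows around the starts of Fbxo2 and Epyc are shown because these genes moved together. The Fbxo2 window lies at chr4:148160418-148160717 and that of Epyc at chr10:97643818-97644117, both on the plus strand, with the same motifs in capitals. The RefSeq start was 47 bases from the start in the table for Fbxo2 and 0 bases for Epyc.
Fbxo2: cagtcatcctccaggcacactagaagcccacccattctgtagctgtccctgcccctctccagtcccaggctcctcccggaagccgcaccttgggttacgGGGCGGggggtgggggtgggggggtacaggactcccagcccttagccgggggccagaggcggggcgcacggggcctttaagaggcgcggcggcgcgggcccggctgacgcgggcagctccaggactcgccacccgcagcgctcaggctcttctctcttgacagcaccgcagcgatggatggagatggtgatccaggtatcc
Epyc: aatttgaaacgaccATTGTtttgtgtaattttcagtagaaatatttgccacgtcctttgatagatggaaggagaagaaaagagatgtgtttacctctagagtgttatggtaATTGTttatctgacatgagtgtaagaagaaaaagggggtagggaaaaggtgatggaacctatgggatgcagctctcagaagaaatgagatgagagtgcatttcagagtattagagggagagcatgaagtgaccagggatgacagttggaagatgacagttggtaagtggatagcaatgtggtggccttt
Fbxo2 had 69% G and C, 21 CpG dinucleotides and 1 GGGCGG, while Epyc had 40.3%, 2 CpG dinucleotides, no GGGCGG and 2 matches to ACAAT. The median window holds 7 CpG dinucleotides. A match is a description of the letters and does not show a site in use.

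Skp1a, the adaptor that joins Fbxo2 to the cullin of its ubiquitin ligase and like it abundant in the organ of Corti, was near the level of Fbxo2 in most pieces. It was at 1269 and 1564, 694 and 945, and 1346 and 697 in wild-type libraries and at 1180 and 1036, 682 and 998, and 295 and 276 in homozygous ones. The ratio of Fbxo2 to Skp1a was 0.853 to 1.31 in 11 libraries and 0.215 in the second homozygous basal one. Cul1, the cullin, stayed at 29.6 to 33.7 throughout. Of the 7 tested partners and relatives of Fbxo2, 0 were called between genotypes in any turn. Among 9 tested proteoglycan relatives of Epyc 1 was called, osteomodulin (Omd), in the basal turn (−2.80 ± 0.49, adjusted p = 0.00887), beside 4.29% of all genes. Dcn, the most abundant, was at 267 and 1152 there against 591 and 597 and did not pass. Fmod (1.45, adjusted p = 0.0965) and Prelp (0.93, 0.102) did not pass either.

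Of 5 tectorial membrane genes 3 were called in the basal turn, beside 4.29% of all genes, and all were lower: Otog (−4.22 ± 0.34, adjusted p = 0.000968), Otogl (−2.28 ± 0.32, 0.00546) and Ceacam16 (−7.65 ± 0.88, 0.00344). Tecta (−0.64, 0.439) and Tectb (−1.67, 0.231) did not pass there. In the apical turn Tecta, which encodes the main noncollagen protein of that membrane, rose from 0.785 and 0.678 to 81.3 and 47.8 (5.19 ± 0.52, 0.00517), the only one of 146 tested genes on the 21 other lists that was called there. In the middle turn 3 of the 146 were called: Slc26a5 (above), Npy and the myelin gene Prx. The share of all genes called was 0.179% in each of these 2 turns. In the basal turn 18 of the 146 were called, beside 4.29% of all genes, and 12 of the 21 lists had no call in any turn, the connexin and epithelium lists among them.

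Slc1a3 (chromosome 15, 8634124 to 8710764, minus strand) was at 55.0 and 45.8, 46.0 and 39.3, and 66.9 and 32.9 in wild-type libraries from apex to base. In homozygous libraries it was at 47.8 and 34.9, 32.8 and 43.1, and 26.1 and 34.2. The genotypes overlapped in every turn and the whole span was 2.56-fold. The log2 differences were −0.29 (95% confidence interval −1.02 to 0.44), −0.17 (−0.91 to 0.56) and −0.64 (−1.37 to 0.10), with adjusted p-values of 0.719, 0.778 and 0.214. Slc1a3 is made by supporting cells and by glia, and the part of glia in its level was not tested. In the 4 libraries with the highest sums of glial markers, the first wild-type middle, the second wild-type basal and both homozygous basal ones, it was at 46.0, 32.9, 26.1 and 34.2, and in the other 8 at 32.8 to 66.9. Of 5 tested relatives 0 were called, counting Glul, the enzyme that turns glutamate into glutamine, which was at 318 to 809.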

How the data were processed

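Total RNA of cochlear turns had been sequenced as paired reads. Per the labels the submitters' tools included fastp 0.20.0, STAR 2.7.3a, featureCounts 2.0.0 and StringTie 2.0 with genome mm10, and the authors deposited FPKM values per gene, from uniquely mapped reads per the study's methods. The strand setting was not given in the sources used here. Here FPKM were scaled by median ratios over 11552 genes at 1 FPKM or more in all libraries. Genes at 1 FPKM or more in at least 2 libraries were tested on log2(scaled FPKM + 1), which understates the fold change of low genes, with limma 3.58.1 in R 4.3.3 (6 group means, 6 residual and 2.78 prior degrees of freedom, mean-variance trend, two-sided). The script was tested on simulated data. The members and the 21 other gene lists were chosen with earlier results of these data known. Named genes were the members, for each the 3 genes of highest Pearson's r over 12 libraries among genes averaging 5 scaled FPKM or more, called list genes, the most abundant list genes and close relatives or partners. Sox9, Gata3, Cdkn1b, Otof, Slc17a8, Jag1 values, Axin2, Rspo2, Rspo3, Lgr4, Cul1 and Epcam ratios were named after their values were seen. Other settings were another pseudocount, filter, scaling, threshold or subset of libraries, a replicate block and leaving out each library. Some of the nearest genes are not reported here.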

Additional observations from a re-analysis of the deposited data

Results flagged for a closer look

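Each group holds 2 libraries, too few for a check of single libraries against their group. For 2 members the genotype difference itself differed between turns by an interaction term in the limma fit. That of Prox1 in the basal turn exceeded that in the middle turn by 4.36 on the log2 scale (adjusted p = 0.00394), with homozygous levels higher in 2 of 2 libraries at the base and lower in 2 of 2 in the middle. That of Fgfr3 had the opposite sign, −2.92 (adjusted p = 0.00251), with homozygous levels lower in 2 of 2 libraries at the base and higher in 2 of 2 in the middle. Prox1 of homozygous base (11.99 and 3.84) overlapped that of wild-type middle (7.67 and 4.66). Prox1 of homozygous middle (1.10 and 0.353) overlapped that of wild-type base (0.280 and 1.01). Fgfr3 overlapped in neither pair of groups, at 4.34 and 3.79 against 5.13 and 6.87, and at 16.7 and 25.3 against 12.5 and 10.3. Whether the middle and basal pieces correspond between the genotypes was not tested.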

How the results depend on the processing

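Counts of called members, of 7, were recomputed for the 13 comparisons. At an adjusted p under 0.05 they were 1 in the middle and 3 in the basal genotype comparison, 1 for the basal minus apical change of genotype, 1 for wild-type base against apex, and 4 and 4 for homozygous base against apex and middle. Quantile normalization gave 1 for the basal genotype comparison and 2 and 2 for homozygous base against apex and middle. Without a filter the basal minus middle change had 1 called member and both homozygous comparisons 0, and a filter of 5 FPKM gave 3 for homozygous base against apex. Wild-type middle against apex had 0 with a pseudocount of 0.1. Fits of the libraries of a single genotype gave 0 for wild-type middle against apex and for both homozygous comparisons of the base.

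Leaving out each library gave 0 to 2 for the basal genotype comparison, 0 to 1 for basal minus apical, 1 to 4 for basal minus middle, 0 to 1 for wild-type middle against apex, 0 to 4 for homozygous base against apex and 0 to 2 for homozygous base against middle. The highest counts, other than that of 1 for wild-type middle against apex, came without the first homozygous basal library, and for homozygous base against middle these 2 were Fbxo2 and Epyc, not Fgfr3. Differences near 0 changed sign: Fbxo2 in the apical turn (−0.35 to 0.08), Sox2 (−0.51 to 0.04) and Slc1a3 (−0.37 to 0.02) in the middle turn, Sox2 (−0.42 to 0.10) and Lgr5 (−0.52 to 1.68) in the basal turn and the average of Epyc (−1.56 to 0.01).

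Whether replicate numbers pair pieces of the same mice cannot be told. Deviations of same-numbered libraries from their group means correlated between −0.43 and 0.45 over 15 pairs of groups. That range counts pairs across genotypes, which share no mouse. Within homozygous libraries the values were −0.41 for apex and middle, −0.25 for middle and base and 0.27 for apex and base. In wild-type libraries they were −0.02, −0.29 and 0.05. With the number as a replicate block, wild-type middle against apex had 0 called members, and no other count moved by over 1.5 times. Some pairs of turns were under −0.1, and a crossed replicate block, with the middle numbers swapped, gave 1 for the basal genotype comparison, 1 for wild-type base against apex and 3 and 3 for homozygous base against apex and middle.

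Terms for marker levels were chosen after seeing the data and were fitted on the same 12 libraries. With either term 0 members were called for basal minus middle and for both homozygous comparisons of the base, the epithelial term left 0 for wild-type middle against apex, and the neuron term gave 1 (Fgfr3) for wild-type base against apex. The epithelial term turned Epyc to −1.55, −1.05 and 1.33 in the apical, middle and basal turns, to 2.38 for basal minus middle and to 0.04 and 0.20 for homozygous base against apex and middle, and Fbxo2 to −0.62 in the middle turn and 0.39 for basal minus middle. The neuron term turned Epyc to −0.09 in the apical turn, Fbxo2 to −0.16 in the middle turn and Slc1a3 to 0.23 in the basal turn. Both terms take a residual degree of freedom.

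Over all genes the count called between genotypes in the basal turn was 696 and ranged from 36 to 1826 without a library and from 0 to 1954 in the other settings. For basal minus middle it was 1445, with 276 to 2263 and 0 to 3214. The counts of 29 in the apical and middle turns ranged from 4 to 136 and from 0 to 475. Unscaled FPKM moved the median of all genes to 0.17 in the middle turn and −0.25 for basal minus middle, with the same members called. By Spearman's rho 2 of the 3 nearest genes were shared for Prox1 and Lgr5, 1 for Fgfr3 and 0 for the other 4 members, so those lists depend on the measure. The cause of these changes was not tested. With 2 libraries a group and no read numbers, differences of low members such as Prox1 cannot be given a counting error.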
